A study of Cavia porcellus with 34 samples.

Results

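The data described here are the F1 comparison of a guinea pig study of prenatal synthetic glucocorticoid (sGC): RNA sequencing of the paraventricular nucleus of the hypothalamus (PVN) in 5 offspring of sGC-treated mothers and 5 offspring of vehicle-treated mothers (Veh). The 10 samples were taken by their labels, generation F1 with in utero treatment Beta or Control, out of 34 samples in the series. Pregnant F0 Dunkin-Hartley guinea pigs received repeated courses of betamethasone, the sGC, or saline, and the F1 fetuses were exposed directly. Brains were taken from juveniles on postnatal day 40. By the study's methods the animals were females of the line that continued through the fathers, and the anteromedial punch held the whole PVN and may have held hypothalamus beside it. The F2 and F3 animals, used below only where a difference from F1 was tested, descend from sGC-treated or saline-treated F0 mothers and were not treated as fetuses. Each F1 animal is a separate sample in the labels, the study counts animals by independent litters, and p-values measure the spread between these animals.

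The PVN holds the neurons that start the hormonal stress response: parvocellular cells release corticotropin-releasing hormone, thyrotropin-releasing hormone and other factors to the pituitary, and magnocellular cells make vasopressin and oxytocin. Glucocorticoids from the adrenal gland feed back on these neurons through the glucocorticoid receptor (NR3C1) and the mineralocorticoid receptor (NR3C2). Betamethasone crosses the placenta and is a strong agonist of the glucocorticoid receptor. It is given to pregnant women at risk of preterm birth to mature the fetal lung, so its lasting traces in the brain of the offspring are of clinical interest.

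The samples have 3 properties that bear on all results. The deposited values are counts that the authors had normalized by residuals, and they summed to between 15.6 and 21.9 M (mega) in Veh and between 16.2 and 20 M in sGC. The group means differed by 0.625 M (exact permutation test over 252 assignments, two-sided p = 0.667, the smallest possible being 0.00794), and the values were divided by median-of-ratios size factors (0.849 to 1.2 in Veh, 0.907 to 1.07 in sGC). All values below are these scaled values, which have no unit of reads. Apart from this, Veh replicate 3 lay almost on the mean of the other 4 Veh animals across genes: the SD over genes of its log2 deviation was 0.0296, against 0.207 to 0.293 in the other Veh animals and 0.280 to 0.371 in sGC. Of the 8 directions in which animals can vary within the groups, 1 was almost empty (singular value 0.752, the next being 18.3), and Veh replicate 3 carried a weight of 0.89 in it. This animal therefore adds to n and narrows the spread while holding almost no variation of its own, and the main counts are given with and without it.

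Marker genes of brain regions also differed between the punches. TCF7L2, a transcription factor of thalamic neurons, stood at 658, 1219.8, 1105, 6315 and 616 in Veh replicates 1 to 5 and between 339 and 619.8 in sGC. GBX2, another thalamic factor, was at 832 in Veh replicate 4 and at no more than 84.8 in any other animal. Veh replicate 4 was thus far above the rest in both. AVP, OXT, CRH, TRH, SIM1 and OTP together, the markers of the PVN itself, summed to between 107406 and 209467 in Veh (median 173541) and between 19760 and 172084 in sGC (median 49525), and sGC replicate 1 was the lowest. Most of each sum was AVP and OXT, at 111125 and 90855 in Veh replicate 4 and 10045 and 7329 in sGC replicate 1. The sum therefore mainly follows these peptide genes, and the other markers are given gene by gene below. All 6 PVN markers, and thus the labelled tissue, were found in every animal.

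Of 11874 genes with a mean of at least 10, 2051 (17.3%) differed between F1 sGC and F1 Veh at an adjusted p under 0.05 (limma, Benjamini-Hochberg), and these are the genes called below. Of them, 1010 (8.51% of all tested) were higher and 1041 (8.77%) were lower in sGC. Without Veh replicate 3, 893 genes (7.52%) were called, 495 higher and 398 lower, and 892 of them were among the 2051. On the deposited values without scaling, 78 genes (0.657%) were called, 72 higher and 6 lower, all of them among the 2051. The scaling therefore moved the share of higher genes among the calls from 92.3% to 49.2%, although the median over all genes tested moved only from 0.07 to 0 on the log2 scale. Without Veh replicate 4 there were 1906 calls and without sGC replicate 1 there were 1499. Entering the nearly empty direction as a covariate left 1339 calls, 685 higher and 654 lower. In 1687 genes (14.2%) the 5 Veh and the 5 sGC values did not overlap, and 1479 of these were called.

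**Figure D1:**
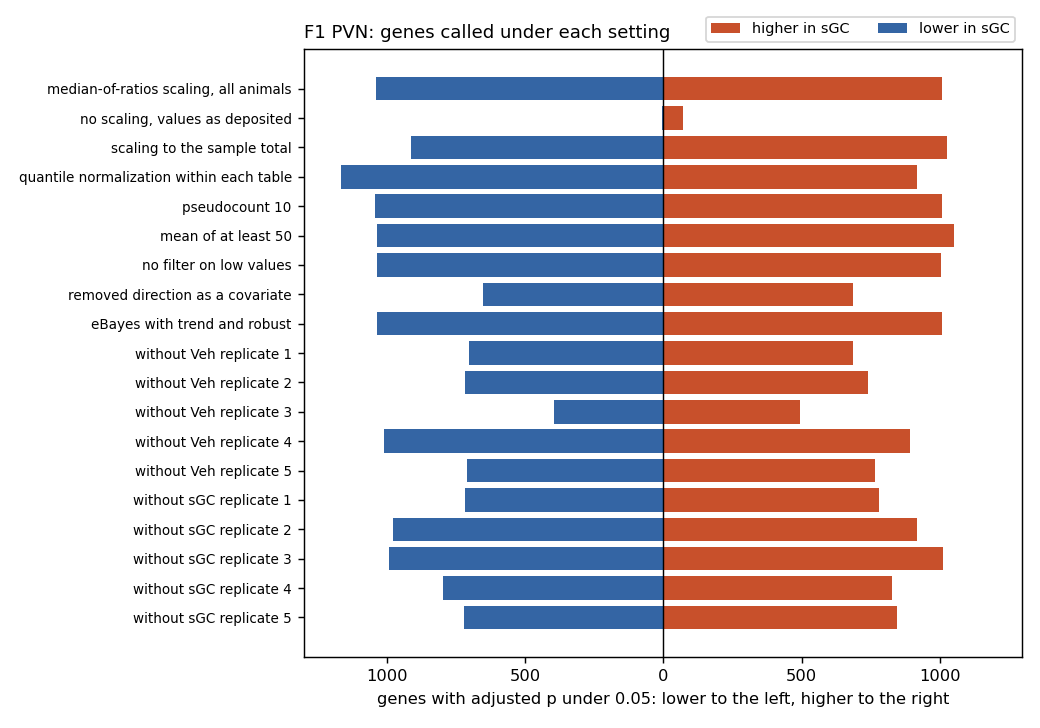
Genes called higher (to the right) and lower (to the left) in F1 sGC under each setting, as numbers of genes. The bars shrink to 72 and 6 without scaling and to 495 and 398 without Veh replicate 3, and the other single animals left out give between 1389 and 2008 calls in all.

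Most changes were small. The median log2 fold change of the genes called higher was 0.28 (interquartile range 0.21 to 0.41), and the median fall of those called lower was 0.22 (0.18 to 0.28). A log2 fold change of at least 0.5 was reached by 149 higher and 28 lower genes, and one of at least 1 by 16 and 3. The balance of rises and falls moved with the level of expression. Of the calls at a mean of 10 to 50, 67.9% were higher, and of those at 50 to 200, 76.5% were, against 46.8% at 1000 to 5000 and 33.1% above 5000. The share called was 3.37% of the genes at 10 to 50, 25.8% of those at 1000 to 5000 and 24.1% above 5000.

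**Figure D2:**
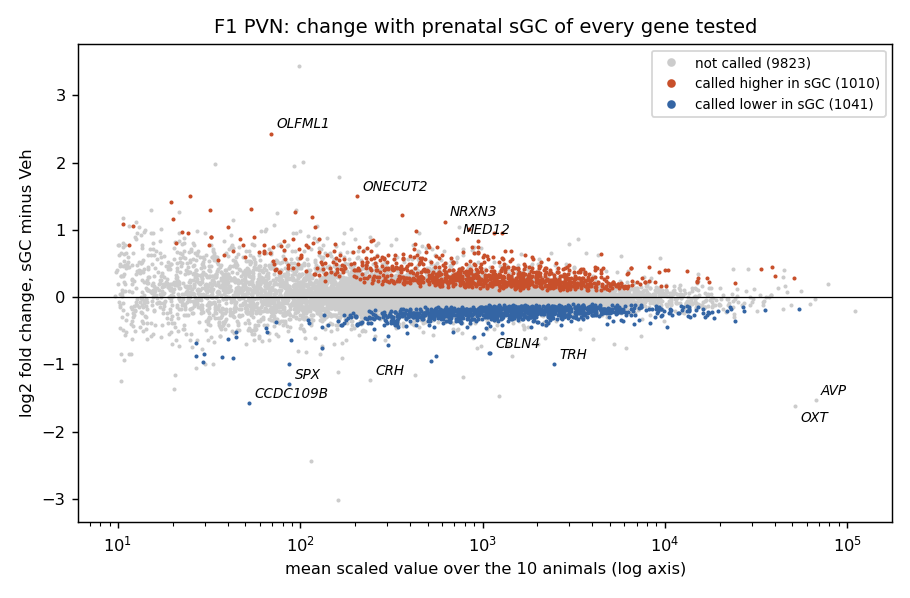
The log2 fold change (sGC minus Veh, y axis) of all 11874 genes against their mean scaled value (x axis, log scale), with the 1010 genes called higher in red and the 1041 called lower in blue. The calls form a band on both sides of 0, with the tallest rises at low means, and AVP and OXT lie far below 0 at the highest means without being called.

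A first group of rises, with a narrow spread within each group, was in genes that regulate chromatin and transcription. MED12, a subunit of the Mediator complex that links transcription factors to RNA polymerase, stood at 508, 570.4, 506, 543 and 450 in the 5 Veh animals and at 925, 914, 899, 999 and 939 in the 5 sGC animals. Every sGC value lay above every Veh value, and the mean rose from 516 ± 45.4 to 935 ± 38.6 (SD, n = 5 each). On the log2 scale this was a rise of 0.86 ± 0.06 (SE, adjusted p = 0.000113 by limma). EP300, a histone acetyltransferase and coactivator, was at 1063, 1072, 1046, 1027 and 1035 in Veh and at 1488, 1572, 1554, 1585 and 1517 in sGC. Its values spread little within either group, and its log2 fold change was 0.56 ± 0.03 (SE, adjusted p = 4.23e-05). KAT6A, another acetyltransferase, was at 729, 727, 665, 719.5 and 565 in Veh and 1294, 1220.1, 1164, 1184 and 1168 in sGC, and CHD2, a chromatin remodeller, at 429, 432, 414, 453 and 371 and 715, 675, 743, 685 and 718. Neither gene overlapped between the groups, and their log2 fold changes were 0.83 and 0.75 (adjusted p = 0.000201 and 0.000128). KDM6B, which removes repressive methyl groups from histones, rose from 179 ± 13.3 to 323 ± 24.8 (SD, n = 5 each). SETBP1, a nuclear DNA-binding protein, rose from 175 ± 18 to 315 ± 18.7. All 6 genes were also called without scaling and without Veh replicate 3.

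Among 112 histone and DNA modifier genes, 33 (29.5%) were called higher and 4 (3.57%) lower, against 8.51% and 8.77% of all genes tested. The median log2 fold change of the list was 0.05. Of the 33, 22 were called whichever single animal was left out, and 6 were called without scaling. The members that rose included 5 of the KMT2 family of histone methyltransferases, such as KMT2E at 0.53 and KMT2C at 0.45, and also CREBBP at 0.25, BPTF at 0.44 and CHD7 at 0.38. The members that fell were the deacetylase HDAC3 at -0.29, the arginine methyltransferases PRMT6 at -0.29 and PRMT2 at -0.15, and SETD3 at -0.13. The maintenance DNA methyltransferase DNMT1 rose by 0.20, and the demethylating enzymes TET2 and TET3 rose by 0.35 and 0.24 on the log2 scale, but these 3 were not called without Veh replicate 3 (adjusted p = 0.0906, 0.0864 and 0.055). DNMT3A, which sets new DNA methylation, was not called, at 0.16.

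**Figure D3:**
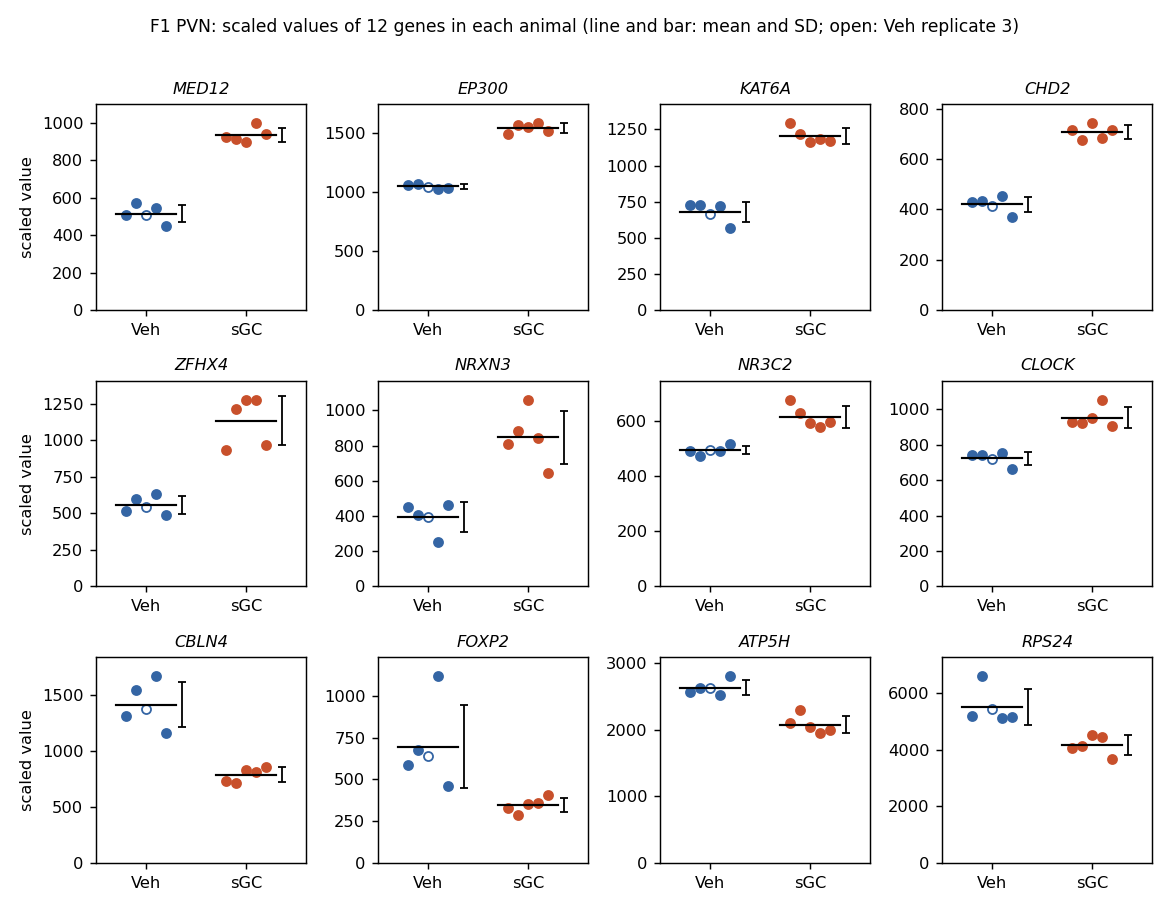
Scaled values of 12 genes in each of the 5 Veh (blue) and 5 sGC (red) animals, on axes that start at 0; lines and bars are the mean and SD, and the open point is Veh replicate 3. In all 12 panels the groups are separate, and FOXP2 has its highest value, 1118, in Veh replicate 4.

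The largest rises without overlap between the groups were in genes of lower expression and wider spread. OLFML1, a secreted olfactomedin-like protein, stood at 8.6, 12.5, 12.4, 17.4 and 11.8 in Veh and at 198, 26.1, 344, 40 and 23.1 in sGC. Its log2 fold change of 2.43 ± 0.69 (SE) came mostly from sGC replicates 1 and 3, and it was not called without Veh replicate 3 (adjusted p = 0.0779), without sGC replicate 1 (adjusted p = 0.0734) or without 3 other single animals. THSD4, a protein of the extracellular matrix, was at 30.4, 24.9, 27.9, 30.1 and 25.9 in Veh and 164, 59.7, 45, 68.6 and 57.3 in sGC. RXFP1, the relaxin receptor, was at 56.1, 71.5, 53.7, 33.6 and 58.9 in Veh and 108, 122, 151, 99 and 185 in sGC, a rise of 1.27 on the log2 scale. KIT, the receptor for stem cell factor, was at 202, 248, 204, 159.9 and 228 and 887, 542, 322, 334 and 505, with its highest value in sGC replicate 1. THSD4, RXFP1 and KIT were called in each of the 10 fits that left out 1 animal. CDH1, which encodes E-cadherin, had a log2 fold change of 1.19, but it lost the call without Veh replicate 3 (adjusted p = 0.0765) and without 4 other animals.

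Transcription factors and an adhesion gene of neurons followed. NRXN3, a presynaptic adhesion protein, stood at 450.3, 403, 396, 251 and 464 in Veh and at 806, 885, 1061, 842 and 642 in sGC (log2 fold change 1.12 ± 0.17 SE, adjusted p = 0.00287). ZFHX4, a zinc finger homeodomain factor, was at 517, 599.5, 543, 635 and 489 in Veh and 936, 1214, 1276, 1279 and 970 in sGC, and its mean rose from 557 ± 59.9 to 1135 ± 169 (SD, n = 5 each). Both were called without scaling and whichever animal was left out. LHX1, a factor of hypothalamic clock neurons, had a log2 fold change of 0.98 (adjusted p = 0.0209), and Veh replicate 4 was its lowest animal at 156. ONECUT2, a homeodomain factor, had 103, 74.8, 112, 67.2 and 204 in Veh and 294, 312, 339, 352 and 203 in sGC. Here the groups overlapped slightly, since the highest Veh value, 203.8, was above the lowest sGC value, 202.8 (log2 fold change 1.5, adjusted p = 0.00567). SSC5D, a scavenger receptor-like secreted protein, rose by 0.87 on the log2 scale, with an adjusted p of 0.0535 without Veh replicate 3.

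CBLN4, CCKAR and CHRNA5 fell with every sGC value below every Veh value. CBLN4, a secreted organiser of synapses, stood at 1313, 1543, 1375, 1666 and 1159 in Veh and at 730.3, 708, 828, 812 and 856 in sGC, so the lowest Veh animal was above the highest sGC animal. Its mean fell from 1411 ± 198 to 787 ± 64.3 (SD, n = 5 each), a log2 fold change of -0.83 ± 0.09 (SE, adjusted p = 0.000928). CCKAR, a receptor for cholecystokinin, was at 805, 783, 691, 889 and 459 in Veh and 309, 316, 459, 445 and 431 in sGC, and the lowest Veh value came within 1 unit of the highest sGC value. CHRNA5, a subunit of nicotinic acetylcholine receptors, fell by 0.64 on the log2 scale (adjusted p = 0.00695). These 3 genes were called whichever animal was left out, CHRNA5 not without scaling (adjusted p = 0.171).

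In other falls Veh replicate 4, the animal high in thalamic TCF7L2 and GBX2, was the highest Veh animal by a wide margin. CCDC109B, now named MCUB and an inhibitory subunit of the mitochondrial calcium uniporter, was at 52.3, 61.5, 66.1, 183 and 45.9 in Veh and 17.3, 24.3, 23, 25.7 and 26.5 in sGC. Its log2 fold change was -1.58 with Veh replicate 4 and -1.24 without it, and it was called both ways. FOXP2, a transcription factor also found in thalamic neurons, was at 588, 676, 639, 1118 and 459 in Veh and 327, 288, 351, 357 and 404 in sGC, with log2 fold changes of -0.95 and -0.77. PARVB, an adaptor of integrin adhesion, moved from -0.83 to -0.58 without that animal, PGBD5, derived from a transposase, from -0.54 to -0.37, and CPNE4, a copine, from -0.52 to -0.37. HTR7, a serotonin receptor, moved from -0.71 to -0.53 and RTN4R, the receptor for Nogo, from -0.62 to -0.45, the last no longer called (adjusted p = 0.0559) and lost in 9 of the 10 fits that left out 1 animal. PARVB, HTR7, RTN4R, PGBD5 and CPNE4 were not called without Veh replicate 3 (adjusted p between 0.0645 and 0.0927). AGTR1, the angiotensin receptor of stress and fluid balance, and POPDC3, a cyclic nucleotide-binding membrane protein, fell by 0.75 and 0.99 and likewise lost their calls without Veh replicate 3 (adjusted p = 0.0749 and 0.0699), AGTR1 also without Veh replicate 4 (adjusted p = 0.066). The part of the thalamic markers in these falls was not tested beyond leaving that animal out.

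Genes of basic energy and protein metabolism were called lower far more often than higher, by small amounts. Of 59 respiratory chain and ATP synthase genes, 30 (50.8%) were called lower and 0 higher, against 8.77% and 8.51% of all genes, and the median log2 fold change was -0.20. The respiratory chain drives ATP synthesis in mitochondria, and the calls came from each of its complexes except complex II. ATP5H stood at 2567, 2631, 2629, 2524 and 2805 in Veh and at 2098, 2294, 2037, 1956 and 1994 in sGC, a fall of 0.34 on the log2 scale (adjusted p = 0.00192). COX6C and COX7A2 of cytochrome oxidase and UQCRB of the cytochrome bc complex had a log2 fold change of -0.29 each. Among the members with a log2 fold change above 0 was SDHA, at 0.13. Of the 59 log2 fold changes 55 were negative. Without Veh replicate 3, 10 of the 30 remained called, and without sGC replicate 1 the list had 18 calls. Without scaling it had none, with a median of -0.14 against 0.07 over all genes.

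Ribosomal protein genes showed the same direction. Of 50 genes of the cytosolic ribosome, 24 (48%) were called lower and 0 higher, against 8.77% and 8.51% of all genes. The median was -0.18, and 49 had a negative log2 fold change. RPS24 stood at 5183, 6591, 5433, 5100.5 and 5149 in Veh and 4039, 4115, 4508, 4448 and 3675 in sGC, and its log2 fold change of -0.40 was the lowest of the list. Many ribosomal protein genes have near-identical processed copies in mammalian genomes, so how their reads were assigned is uncertain. Of 71 genes of the mitochondrial ribosome, 26 (36.6%) were called lower and 2 higher, with a median of -0.15. MRPS18C fell from 580 ± 27.8 to 435 ± 46.1 (SD, n = 5 each), and the members that rose were MRPS21 at 0.16 and MRPS7 at 0.17. Without Veh replicate 3 the cytosolic list had 7 lower calls and the mitochondrial list 6, and neither had a call without scaling.

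The same held for the proteasome, which degrades marked proteins, for chaperones, which fold them, and for splicing. Of 36 proteasome genes 16 (44.4%) were called lower and 1 higher, against 8.77% and 8.51% of all genes, with a median of -0.15. PSMG3, an assembly chaperone of the proteasome, stood at 409.5, 433, 433, 464 and 436 in Veh and 298, 339.8, 319, 341 and 311 in sGC, and the gene that rose was PSME4, an activator subunit, at 0.24. Of 78 heat shock and chaperone genes 21 (26.9%) were lower and 1 higher. The prefoldins PFDN4, PFDN1 and PFDN6, which hand unfolded actin and tubulin to other chaperones, fell by 0.39, 0.33 and 0.32 on the log2 scale. Of 52 spliceosome genes 16 (30.8%) were lower, led by LSM4 at -0.36 and LSM7 at -0.35, and PRPF8 and SF3A1 were higher at 0.22 and 0.22. Of 72 translation factor and tRNA synthetase genes 16 (22.2%) were lower, such as EIF4A2 at -0.30, and 3 higher, among them TARS2 at 0.23. Without Veh replicate 3 these 4 lists had 6, 11, 7 and 7 lower calls, and without scaling none. The median of the spliceosome list, -0.06, was 0 without scaling, where the median of all genes was 0.07. The list thus lay 0.07 below all genes in both cases. Lengths of the transcripts were not used here, so whether length moves with these directions was not tested.

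**Figure D4:**
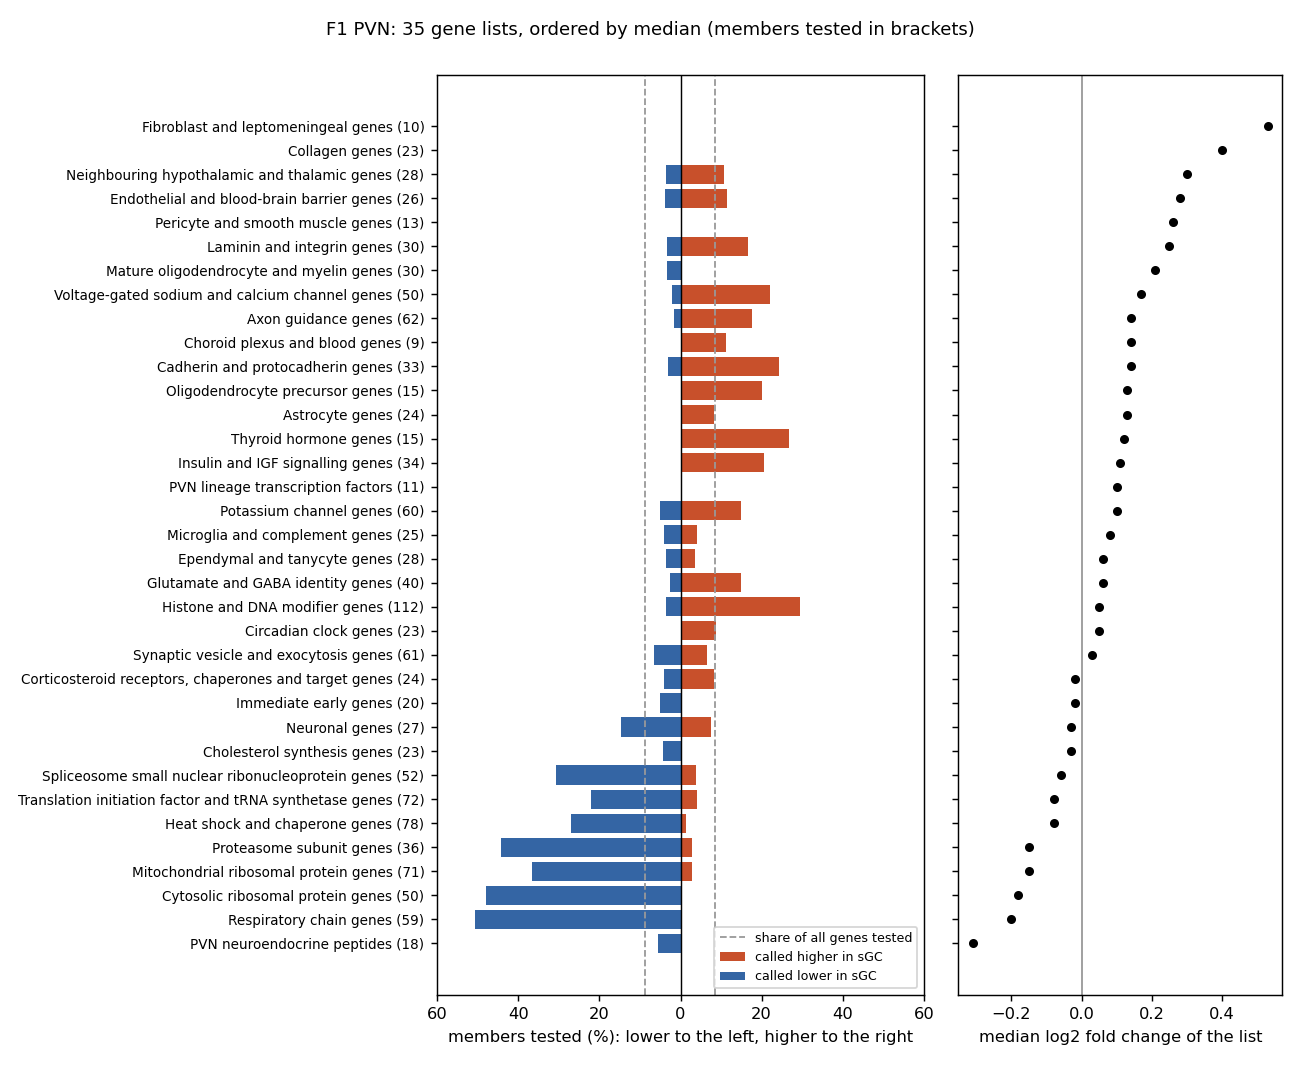
For 35 gene lists, the percentage of members tested that were called lower (blue, to the left) or higher (red, to the right) in F1 sGC, and the median log2 fold change of each list; dashed lines mark the 8.77% and 8.51% of all genes tested. The bars to the left pass the line for 7 lists of metabolism and protein turnover and for neuronal genes, and the longest bar to the right, 29.5%, is that of histone and DNA modifiers. The lines take no account of expression level. Lower calls were more frequent at high means: 9 of 832 genes at 10 to 50, 546 of 3970 at 1000 to 5000 and 101 of 627 above 5000.

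The neuroendocrine peptides of the PVN had the lowest median of all 35 lists, -0.31, but only 1 of 18 was called. This was 5.56% lower and 0% higher, against 8.77% and 8.51% of all genes, so the calls were no more frequent than among all genes. AVP, vasopressin, stood at 99918, 91559, 91139, 111125 and 57385 in Veh and at 10045, 13901, 74541, 97557 and 25688 in sGC. Sample by sample, sGC replicates 1, 2 and 5 lay below every Veh animal, while replicates 3 and 4 lay within the Veh range, and the log2 fold change of -1.53 ± 0.57 (SE) did not pass the test (adjusted p = 0.087). OXT, oxytocin, had the same split, with 7329, 10498, 58426, 66736 and 20353 in sGC against 76382, 74447, 71064, 90855 and 43343 in Veh (log2 fold change -1.61, adjusted p = 0.0739). Both passed the test without sGC replicate 3 (adjusted p = 0.0465 for AVP and 0.0373 for OXT) or without sGC replicate 4 (0.03 and 0.0321), and had adjusted p between 0.0831 and 0.163 without each of the other animals. CRH was at 304, 261, 308, 491 and 252 in Veh and at 35.5, 182, 199, 272 and 117 in sGC (log2 fold change -1.23, adjusted p = 0.0881). Here 4 of 5 sGC animals lay below every Veh animal, sGC replicate 4 lay above the lowest ones, and without sGC replicate 1 the log2 fold change was -0.76. TRH was the member called, with 2891, 3353, 3167, 3271 and 3148 in Veh and 909.5, 2016, 1511, 3410.4 and 1034 in sGC, and the groups overlapped because sGC replicate 4 was the highest of all animals. Its log2 fold change was -1.0 ± 0.30 (SE, adjusted p = 0.04), and the call was lost without Veh replicate 3 (adjusted p = 0.0864), without scaling (adjusted p = 0.0802) and without sGC replicate 1 (adjusted p = 0.0751), in all in 8 of the 10 fits that left out 1 animal. SST, somatostatin, overlapped widely, at -0.69 ± 0.46 (SE, adjusted p = 0.324). SPX, which encodes the peptide spexin and was not in the list, fell by 1.29 and was called, but with an adjusted p of 0.0533 without Veh replicate 3.

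Of the 11 transcription factors of the PVN lineage none was called, 6 log2 fold changes were above 0 and 5 below, and the median was 0.10, or -0.03 without Veh replicate 4. They ran from -0.70 for OTP to 0.29 for RREB1. SIM1, POU3F2, UNCX and POU3F4 were also below 0, at -0.41, -0.41, -0.26 and -0.11, and SIM2 and POU3F3 were at 0.18 and 0.17. OTP, which specifies these neurons, was at 2631, 2590.2, 2449, 2331 and 2066 in Veh and at 732, 1195, 2277, 2653 and 1346 in sGC, and SIM1, its partner in the lineage, at 1456, 1331, 1365, 1394 and 1212 and 708, 856, 1259.6, 1454 and 986. In both genes sGC replicates 1, 2 and 5 were the lowest animals, the same 3 as for AVP. They were also the lowest in POU3F2, at 1356, 1345 and 1883, against a lowest Veh value of 1962. In bulk tissue, fewer PVN cells in a punch and less of their RNA per cell cannot be told apart. Of 28 genes of neighbouring hypothalamus and thalamus, 3 (10.7%) were called higher, LHX1, RORB at 0.63 and PRLR at 0.89, and 1 (3.57%) lower, FOXP2, against 8.51% and 8.77% of all genes. PRLR was not called without Veh replicate 3 (adjusted p = 0.0781) or without scaling (adjusted p = 0.11). Of the 28 log2 fold changes 22 were above 0, with a median of 0.30, and 0.12 without Veh replicate 4. They ran from -2.43 for GBX2 to 1.95 for NR5A1, a marker of the ventromedial nucleus, neither of which was called (adjusted p = 0.165 and 0.0914).

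**Figure D5:**
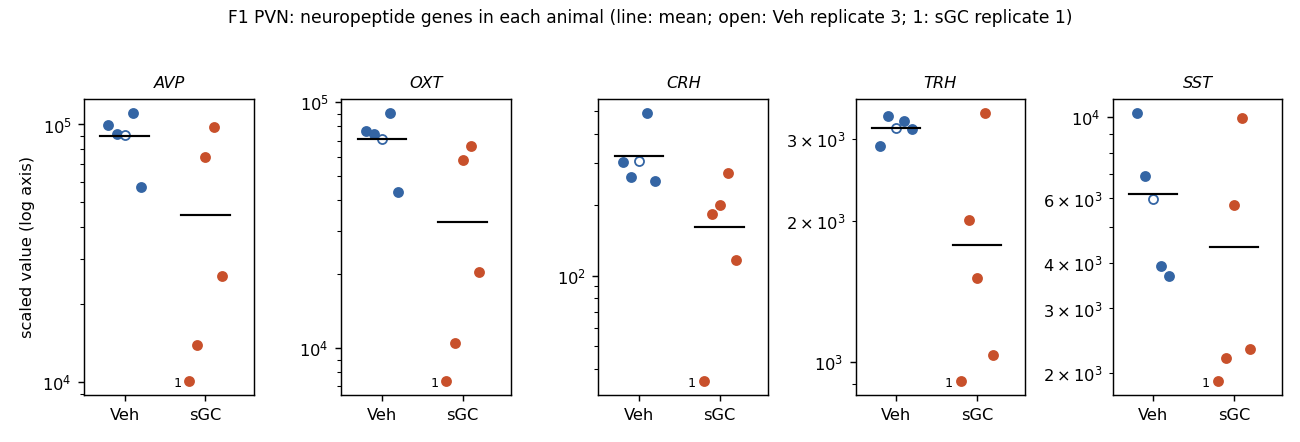
Scaled values (log axis) of 5 neuropeptide genes in each Veh (blue) and sGC (red) animal; the line is the mean, the open point Veh replicate 3 and the digit 1 marks sGC replicate 1. In AVP and OXT 3 of 5 sGC animals lie below the Veh animals, and in all 5 genes sGC replicate 1 is the lowest animal.

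Among the genes of corticosteroid signalling the mineralocorticoid receptor stood out. NR3C2 was at 491, 474, 494, 491 and 516 in Veh and at 677, 627, 590.1, 577 and 595 in sGC, with no overlap, and rose from 493 ± 15 to 613 ± 39.9 (SD, n = 5 each), a log2 fold change of 0.31 ± 0.05 (SE, adjusted p = 0.0047). It was called whichever animal was left out, but not on the deposited scale (adjusted p = 0.171). NR3C1, the glucocorticoid receptor, was at 2782, 3132, 2898, 2762 and 2850.5 in Veh and 3216, 2568, 3214, 3343 and 2688 in sGC (log2 fold change 0.05 ± 0.08, adjusted p = 0.671). FKBP5, a chaperone that glucocorticoids induce and that dampens their receptor, overlapped between the groups (0.40 ± 0.27, adjusted p = 0.334). Of 24 genes in the list, 2 (8.33%) were higher, NR3C2 and the glucocorticoid target ZBTB16 at 0.29, and 1 (4.17%) was lower, the receptor cochaperone PTGES3 at -0.21, against 8.51% and 8.77% of all genes. ZBTB16 and PTGES3 lost their calls without Veh replicate 3 (adjusted p = 0.08 and 0.0531). Well known targets such as TSC22D3 at -0.08, PER1 at 0.11 and KLF9 at -0.07 did not pass the test. The median of the list was -0.02, and 0.05 without scaling, where the median of all genes was 0.07. Of 20 immediate early genes, which mark recent neuronal activity, 1 (5%) was called lower, DUSP6 at -0.23, in 3 of the 10 fits that left out 1 animal and not without scaling (adjusted p = 0.639), and FOS was at -0.40 without a call.

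CLOCK and RORB were the 2 of 23 circadian genes that were called, both higher, a share of 8.7% against 8.51% of all genes. CLOCK, the core activator of the circadian oscillator, stood at 744, 742, 719, 756 and 661 in Veh and 929, 922, 949.7, 1055 and 904 in sGC, with no overlap (log2 fold change 0.39 ± 0.06 SE, adjusted p = 0.00187, and 0.11 without scaling). Its partner ARNTL was at -0.10, and PER2 and CRY1 were at 0.27 and 0.03, none of them called.

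Of 15 thyroid hormone genes 4 (26.7%) were called higher and 0 lower, and all 4 were called whichever animal was left out. TRHR, the receptor for thyrotropin-releasing hormone, was at 386, 413, 357, 289.7 and 373 in Veh and 634, 770.1, 491, 435 and 866 in sGC (log2 fold change 0.77, adjusted p = 0.0168). Among the others were the coactivators MED1 at 0.26 and NCOA1 at 0.23, which serve many receptors besides that of thyroid hormone. The receptors THRA and THRB were at -0.01 and -0.03, without calls. Of 34 insulin and IGF signalling genes 7 (20.6%) were called higher and 0 lower, against 8.51% and 8.77% of all genes, and 1 was called higher without scaling. RICTOR, a subunit of a complex of the mTOR kinase, rose from 85.4 ± 3.73 to 151 ± 15.8 (SD, n = 5 each) without overlap, and IGF1R, the receptor of insulin-like growth factor, from 849 ± 29.8 to 1113 ± 65.8. IGF2R rose by 0.31, and these 3 were the ones called whichever animal was left out. Without scaling RICTOR was called, and IGF1R and IGF2R were not (adjusted p = 0.0845 and 0.193). INSR, the insulin receptor, was at 0.27 and AKT1 at 0.10, without calls.

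Ion channel, adhesion and guidance genes were called higher more often than lower, against shares of 8.51% higher and 8.77% lower among all genes. Of 50 sodium, calcium and TRP channel genes 11 (22%) were higher and 1 lower, with a median of 0.17. SCN4B, a sodium channel subunit, stood at 15.2, 8.3, 11.4, 10.4 and 13 in Veh and 42.2, 65.3, 20.1, 20 and 41.9 in sGC, and CACNG8, which also serves AMPA receptors, at 133, 135, 138, 145 and 146 and 193, 239.9, 197, 189 and 224. Both were free of overlap, at log2 fold changes of 1.5 and 0.57. Of 60 potassium channel genes 9 (15%) were higher, led by KCNH5 at 0.78, and 3 lower, KCNMB4 at -0.42, KCNC2 at -0.41 and KCNJ9 at -0.27. Of 33 cadherins and protocadherins 8 (24.2%) were higher, such as FAT4 at 0.73 and PCDHGB5 at 0.53, and 1 lower. Of 62 axon guidance genes 11 (17.7%) were higher, among them the semaphorin receptor NRP1 at 0.60 and netrin NTN4 at 0.50, and 1 lower, SEMA3C at -0.35. Calls made whichever animal was left out numbered 6 of 11 for the sodium and calcium list, 2 of 9 and 2 of 3 for potassium channels, 6 of 8 for cadherins and 3 of 11 for guidance genes. Without scaling 2 of the sodium and calcium list, 1 potassium channel and none of the cadherins or guidance genes were called higher.

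Of 40 glutamate and GABA genes 6 (15%) were called higher and 1 (2.5%) lower, against 8.51% and 8.77% of all genes, and 1 of the 6 was called without scaling. GABRG1, a GABA receptor subunit, stood at 811, 975, 796, 639.6 and 799.8 in Veh and 1431, 1244, 1137, 1166 and 1094 in sGC, without overlap. GRIK3 and GRM5, glutamate receptors, rose by 0.57 and 0.48, and GABRA4 was lower at -0.59, with Veh replicate 4 at 1740 its highest animal and no call without Veh replicate 3 (adjusted p = 0.092). Of 61 genes of synaptic vesicles and release 4 (6.56%) were higher and 4 (6.56%) lower, shares below those of all genes. Without Veh replicate 3 the list had 1 higher and 1 lower call, and without scaling 1 higher and 0 lower. VAMP2, the vesicle protein that drives fusion, was at 16273, 15331, 15821, 15992 and 15731 in Veh and 13413, 13445, 13274, 12863 and 13217 in sGC (log2 fold change -0.26 ± 0.03 SE, adjusted p = 0.00129), a small fall with no overlap that did not pass the test without scaling (adjusted p = 0.527). UNC13C, a priming factor, had a log2 fold change of 0.95, with sGC replicates 1 and 2 highest and an adjusted p of 0.0528 without Veh replicate 3. Of 27 neuronal genes 4 (14.8%) were lower, such as UCHL1 at -0.29, and 2 (7.41%) higher, NRXN3 and MAP2 at 0.42. Without Veh replicate 3 the list had 1 lower and 2 higher calls, and without scaling 0 lower and 1 higher, NRXN3.

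Summed markers of vessels and microglia ranged more widely within sGC than within Veh. The sum of 6 astrocyte markers did not, lying between 133824 and 165800 in Veh and between 141718 and 163166 in sGC. The 2 astrocyte genes called did range more widely in sGC. GLUL ran from 30572 to 35574 in Veh and from 34461 to 61236 in sGC, and SPARCL1 from 32075 to 37878 and from 37719 to 51838. Summed markers of mural cells, the contractile cells of vessels, lay between 3209 and 3761 in Veh and between 3699 and 12047 in sGC, those of endothelium between 4376 and 5133 and between 4393 and 8119, and those of microglia between 3699 and 3997 and between 3773 and 6563. The highest animal in all 3 was sGC replicate 1, the animal with the least PVN markers. The defining mural markers PDGFRB, ACTA2 and MYH11 had no values here, and neither had C1QA of microglia. Myelin markers summed to between 33063 and 58486 in Veh and between 36941 and 100040 in sGC, with sGC replicate 2 highest. Choroid plexus markers summed to between 329 and 479 in Veh and between 451 and 1010 in sGC, with sGC replicate 5 highest. The 1 fibroblast marker measured ran from 159 to 254 in Veh and from 183 to 717 in sGC, with sGC replicate 1 highest. None of the 13 pericyte and smooth muscle genes, 10 fibroblast genes or 23 collagen genes was called, although the medians of the last 2 lists were 0.53 and 0.40, and 0.20 and 0.25 without sGC replicate 1. Of 26 endothelial genes 3 (11.5%) were higher and 1 (3.85%) lower, and 1 and 0 both without Veh replicate 3 and without scaling. PTPRB, an endothelial phosphatase, was at 646, 663, 682, 691 and 770.3 in Veh and 1718, 1382, 815, 985 and 1113 in sGC (log2 fold change 0.75, and 0.61 without sGC replicate 1, called both ways). Of 30 myelin, 24 astrocyte and 25 microglial genes, 0, 2 and 1 were called higher and 1, 0 and 1 lower, shares all below the 8.51% and 8.77% of all genes. None of these calls was made without Veh replicate 3 or without scaling. The 3 of 15 oligodendrocyte precursor genes called higher (20%) were VCAN, TNR and PCDH15, of which VCAN was lost without Veh replicate 3 (adjusted p = 0.0584) and all 3 without scaling. Of 30 laminin and integrin genes 5 (16.7%) were higher, such as ITGA8 at 0.86 and ITGB8 at 0.42, and 1 lower, with 1 of the 5 called without Veh replicate 3 and no member called without scaling. Of 28 ependymal and tanycyte genes 1 was higher and 1 lower, of 9 choroid plexus and blood genes 1 higher (PRLR), and of 23 cholesterol synthesis genes 1 lower. None of these calls was made without scaling, and without Veh replicate 3 only that of the ependymal gene DNAI1 was (lower, adjusted p = 0.027). TTR of the choroid plexus list had a log2 fold change of 3.44 ± 1.48 (SE) without a call (adjusted p = 0.132). The part of these cell contents in the other results was not tested beyond leaving single animals out.

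The F1 changes were set against F2 (5 animals a group) and F3 (6 a group), whose tables were normalized separately from that of F1. In F2, 0 of 11965 genes (0%) were called by limma, with 1535 at an unadjusted p under 0.05, against 3910 in F1, and in F3 5 of 11866 (0.0421%) were called. The later tables also had nearly empty directions within the groups: F2 had 1 of 8 (singular value 0.935, the next being 17.9) and F3 2 of 10 (0.681 and 0.693), so the spread there is also narrowed. The difference itself was tested as an interaction. The sGC effect differed between F1 and F2 in 515 of 11612 genes (4.44%), 335 with the higher effect in F1 and 180 with the lower, and 405 of them were among the F1 calls. It differed between F1 and F3 in 2529 of 11539 genes (21.9%), of which 1723 were F1 calls. The F3 libraries were sequenced in 2 batches that the authors adjusted for, and 2 of the 6 F3 sGC animals were only in the later one. With the first batch alone, an alternative added after the data were seen, 1796 differences from F1 were called, 1780 of them among the 2529, and 0 genes were called by limma in F3 itself (1177 at an unadjusted p under 0.05). Of 2020 F1 calls measured in F2, 67.5% had the same sign there, against 53.2% of all genes, and of 2013 measured in F3 26.9% did, against 41.3% of all genes. Without F1 Veh replicate 3 the differences numbered 183 and 2079, and without scaling 159 and 419.

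For EP300, MED12, KDM6B, CHD2, NR3C2 and CLOCK the sGC effect was smaller in the later generations than in F1. Other leading genes lay further from 0 there, such as OLFML1 at -1.02 in F2 and CCDC109B at 0.49 in F2 and 0.72 in F3. KAT6A was at 0.19 in F2, and SETBP1 at 0.16 in F2 and -0.15 in F3. None of these values passed the test within its generation. The log2 fold change of EP300 was 0.56 in F1, -0.01 in F2 and -0.06 in F3, and the differences passed the test (adjusted p = 1.35e-05 and 1.47e-06). MED12 was at 0.16 and -0.04, KDM6B at 0.02 and -0.05 and CHD2 at 0.04 and -0.10 in F2 and F3, each different from F1 (adjusted p between 1.47e-06 and 0.000396). NR3C2 was at -0.09 in F2 and -0.06 in F3 (adjusted p of the differences 0.022 and 0.00099), and CLOCK at 0.09 and -0.02 (0.0419 and 0.000152). Of the histone and DNA modifiers 13 had a higher effect in F1 than in F2 and 0 a lower one, where 2.88% of all genes were higher and 1.55% lower. Against F3 34 were higher in F1 and 8 lower, where 10.7% of all genes were higher and 11.2% lower. CCKAR had the opposite sign in F2, at 0.60 (adjusted p of the difference 0.0084), and so did SPX at 0.56 (0.0241). OXT, not called in F1, was at 0.72 in F2 and its difference narrowly passed the test (adjusted p = 0.0495), but not that from F3 (0.0805). AVP was at 0.47 in F2, with a difference that did not pass (0.0928). In F3 CCKAR was at -0.37, of the same sign as in F1 and with no difference that passed the test (adjusted p = 0.211), and SPX at -0.05 (adjusted p = 0.0306). In the respiratory chain list 2 genes had a lower effect in F1 than in F2 and 0 a higher one, with a median of -0.08 in F2, and 32 had a lower effect than in F3 and 1 a higher one. RXFP1 and TRHR had log2 fold changes of 0.62 and 0.38 in F2, and the difference from F1 did not pass the test (adjusted p = 0.38 and 0.357), while their log2 fold changes of -0.74 and -0.50 in F3 did differ from F1 (adjusted p = 0.0022 and 0.00295).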

How the data were processed

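RNA from PVN punches of 10 F1 animals (5 Veh, 5 sGC) was analysed, with the F2 and F3 animals used for tests of difference. Per the study's methods and the labels, the authors sequenced poly(A) RNA, aligned the reads to the guinea pig genome (cavPor3), counted reads per gene, removed outliers by Cook's distance and then applied the residual method of RUVSeq to the counts. What was deposited are whole numbers after that step and are treated as a score, not as read counts, because counting error can no longer be computed from them. The totals of 15.6 to 21.9 M therefore do not give depth, and no counting interval is given. Columns with the authors' own comparison (edgeR) were not used. There were 0 unassigned sample columns.

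The F1 table held 12114 genes, of which the 11874 with a mean of at least 10 were tested. Values were divided by median-of-ratios size factors, and log2(value + 1) was compared with limma 3.58.1 in R 4.3.3 (trend in the prior variance, Benjamini-Hochberg adjustment over all genes tested, threshold 0.05, two-sided). Fold changes are on the log2(value + 1) scale, which understates changes of low genes. Differences between generations are interaction contrasts of 1 fit over the 4 groups concerned, on the genes tested in both tables, which had been normalized separately; re-sequenced F3 libraries were left out. Gene symbols are those of the files; 11175 were found in a RefSeq gene table of another assembly, and 19 had been turned into dates by a spreadsheet. Sequences, lengths and GC content were not used here.

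Genes are named by this rule. It takes the 12 largest rises and falls among called genes whose mean was 50 or more and whose groups did not overlap. It adds AVP, OXT, CRH, TRH, SST, NR3C1, NR3C2 and FKBP5, and up to 4 called members of each list. It also takes 4 of the largest differences from F2 and 4 from F3, all in genes called in F1 with a mean of 50 or more. Other genes named in the text, such as list members given for direction, were chosen after their values were seen. The genes, the 35 lists and the tests were chosen with earlier results of these data known. On simulated data of 11853 genes, the test recovered 89.5% of 200 genes changed by a log2 fold of 1, and 3.76% of its calls were unchanged genes. The simulated noise was independent for each gene and animal, so it held no nearly empty direction. Its fold was also larger than most real changes (medians of 0.28 for genes called higher and 0.22 for those called lower). These percentages therefore do not give the recovery or the share of unchanged genes among the calls in the real data. Alternatives were other scalings, another pseudocount, other filters, robust variance, the nearly empty direction as a covariate and leaving out each animal.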

Additional observations from a re-analysis of the deposited data

Results flagged for a closer look

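In F1, 262 groups of 5 values were examined, and in 13 of them 1 animal lay far from the others by Dixon's 95% criterion; chance flags about 1 in 20 groups, here 13.1. The total of sGC replicate 5 was 16.2 M, against 19.1 to 20 M in the other 4. Veh replicate 4 stood apart in 9 named genes, given here as log2 values. It was high in CCDC109B at 7.52 (others 5.55 to 6.07), HTR7 at 9.25 (8.2 to 8.46), PARVB at 11.37 (10.03 to 10.31), PGBD5 at 10.84 (9.96 to 10.15) and RTN4R at 8.89 (7.99 to 8.19). It was low in EIF2AK4 at 11.03 (11.22 to 11.28), EPHB1 at 8.57 (9.05 to 9.2), MRPS14 at 7.61 (7.93 to 8.06) and NRXN3 at 7.98 (8.63 to 8.86). Veh replicate 2 was low in LSM4 at 9.02 (9.14 to 9.19) and high in RPS24 at 12.69 (12.32 to 12.41). In sGC replicate 2 TAGLN, a smooth muscle gene, was low at 9.37 (10.54 to 10.96).

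The sGC effect differed between F1 and F2 in 515 genes and between F1 and F3 in 2529 genes (limma interaction, adjusted p under 0.05). These counts rest on different pooled spreads, as said above. The named differences from F2, F1 minus F2 on the log2 scale, were -2.07 for CCDC109B, -1.85 for SPX, -1.47 for CCKAR and 1.36 for THSD4. Those from F3 were 2.51 for OLFML1, -2.3 for CCDC109B, 2.01 for RXFP1 and 1.83 for ONECUT2.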

How the results depend on the processing

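Leaving out 1 animal gave between 893 (without Veh replicate 3) and 2008 genes changed in F1, 495 to 1013 higher and 398 to 1012 lower, with 891 genes called in all 10 fits. Without scaling 78 were called, 72 higher and 6 lower, and with the nearly empty direction as a covariate 1339, 654 of them lower. Genes whose effect differed from F2 numbered 183 (without F1 Veh replicate 3) to 793 (without F1 sGC replicate 3); leaving out F1 Veh replicates 1 or 2, F1 sGC replicates 1 or 2, F2 Veh replicates 2, 3 or 5, or F2 sGC replicates 2 or 4 also moved the count by over 1.5 times (230 to 317). Without scaling the differences were 159 from F2 and 419 from F3, and from F3 leaving out 1 animal gave 2079 to 2836. The group difference of the totals ran from -0.0174 M (without Veh replicate 5) to 1.57 M (without Veh replicate 2). Total and quantile scaling, a pseudocount of 10, a mean of at least 50, no filter and robust variance gave 1942 to 2087 genes changed; quantile normalization gave 44% higher among its calls. Of 130 named genes 116 were called, 30 of them also without scaling and 68 also without Veh replicate 3. Of the named genes only TAGLN, not called, reversed, at -0.05 without Veh replicate 5 and -0.01 without sGC replicate 1 (highest 0.39 without sGC replicate 2). The causes were not tested. No paired analysis was possible because replicate numbers were given in the order of the labels and pair no animals. The depth of the libraries is unknown from these values, so what depth limits could not be computed. Promoter and protein comparisons were not run, since no sequences were used here.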

Other observations

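Symbols that share the letters before their first digit were counted in the same fit, for the 57 such families with at least 20 genes tested; the families described here were chosen after their values were seen. Families called higher more often than the 8.51% of all genes included motor proteins and zinc finger genes. Of 26 kinesins (KIF), the motors that carry cargo along microtubules, 7 (26.9%) were higher and 1 lower. Of 36 ZBTB and 139 ZNF zinc finger genes, 7 (19.4%) and 21 (15.1%) were higher and 0 and 6 lower. Of these higher calls 3 of the kinesins, 2 of the ZBTB and 10 of the ZNF genes were made whichever animal was left out.

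Families called lower more often than the 8.77% of all genes included, beside the ribosomal and translation factor ones, RNA polymerase subunits (POLR, 7 of 25 lower and 2 higher), ubiquitin-conjugating enzymes (UBE, 6 of 27 lower and 2 higher) and RAB GTPases of membrane traffic (10 of 56 lower and 0 higher). Of these lower calls 4 in each of the 3 families were made whichever animal was left out. Solute carriers (SLC), a family of 245 genes, had 13 higher and 12 lower, and of 39 GPR orphan receptor genes 2 were higher and 1 lower.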
